A study of Homo sapiens with 6 samples.

Results

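Immediate early genes and Kruppel-like factors were examined in SCC-9 cells, a permanent human cell line from a squamous carcinoma of the tongue, after knockdown of MTHFD2. The set holds 42 genes of the 17862 in the deposited table, matched by symbol: the FOS, JUN, ATF3, BATF3 and MAF genes of the AP-1 superfamily, EGR1 to EGR3, the IER and NR4A genes, the BTG and ZFP36 genes, 12 KLF genes, SRF and PNRC1. The groups were 3 libraries of cells given a hairpin that targets MTHFD2 (shMTHFD2) and 3 of cells given a control hairpin (shNC), and both were grown with 10% serum and 400 ng/mL hydrocortisone. The design text calls the modified cells knock-out, whereas the treatment label describes a knockdown with hairpin plasmids. The title of the study concerns MTHFD2, a mitochondrial folate enzyme, and the degradation of the transcription factor FOXO1. Nothing in the labels says whether the hairpin cells were clones or pools, so a p-value reflects how much these libraries vary, which may be technical variation.

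Immediate early genes are transcribed within minutes of a growth factor or stress signal without new protein synthesis, and their mRNAs and proteins are short-lived. Extracellular signal-regulated kinases phosphorylate the ETS partners of SRF, a factor that binds the CArG box, an element of the letters CC, then 6 A or T, then GG. AP-1 is a dimer of a JUN protein with a FOS, ATF or second JUN protein, and in squamous epithelium it drives genes of invasion and of terminal differentiation. The EGR and KLF proteins bind GC-rich DNA through zinc fingers, and KLF4 and KLF5 are known for opposing roles in epithelial differentiation and proliferation.

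The promoters below are shown because SRF and BTG2 are among the members that changed, and because EGR1 and EGR2 share the CArG box with SRF while neither passed the test. Each is the RefSeq window of 250 bases before to 50 after a gene's start (GRCh38.p14), with matches to the CArG box and to GCGNGGGCG, the EGR motif, in capitals. Both strands were searched, and these matches do not overlap.

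SRF, chr6:43171019-43171318, plus strand: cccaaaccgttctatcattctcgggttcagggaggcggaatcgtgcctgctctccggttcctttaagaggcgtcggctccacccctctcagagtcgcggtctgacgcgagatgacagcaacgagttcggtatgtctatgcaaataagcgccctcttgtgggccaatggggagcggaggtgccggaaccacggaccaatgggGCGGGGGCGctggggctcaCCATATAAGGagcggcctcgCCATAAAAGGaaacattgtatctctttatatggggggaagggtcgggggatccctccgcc
EGR1, chr5:138465229-138465528, plus strand: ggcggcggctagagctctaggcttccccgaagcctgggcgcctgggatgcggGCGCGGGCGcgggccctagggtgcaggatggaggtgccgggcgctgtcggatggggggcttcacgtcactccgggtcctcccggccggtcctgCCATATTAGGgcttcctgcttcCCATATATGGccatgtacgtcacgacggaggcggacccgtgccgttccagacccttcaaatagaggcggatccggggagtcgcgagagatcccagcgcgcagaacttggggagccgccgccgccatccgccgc
EGR2, chr10:62816317-62816616, minus strand: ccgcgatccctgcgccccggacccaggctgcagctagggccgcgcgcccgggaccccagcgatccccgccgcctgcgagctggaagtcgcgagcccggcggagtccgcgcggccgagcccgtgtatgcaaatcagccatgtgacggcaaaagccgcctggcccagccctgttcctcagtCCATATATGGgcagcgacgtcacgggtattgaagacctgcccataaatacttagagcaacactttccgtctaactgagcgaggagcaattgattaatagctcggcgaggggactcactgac
BTG2, chr1:203305269-203305568, plus strand: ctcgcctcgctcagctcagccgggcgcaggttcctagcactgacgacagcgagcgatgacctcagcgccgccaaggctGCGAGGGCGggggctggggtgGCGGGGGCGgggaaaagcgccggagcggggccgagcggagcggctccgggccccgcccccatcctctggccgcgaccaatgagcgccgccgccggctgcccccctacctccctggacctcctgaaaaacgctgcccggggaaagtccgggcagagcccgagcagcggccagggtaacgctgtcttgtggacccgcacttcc

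The SRF window held 2 CArG boxes, 30 and 10 bases before the start, and 1 EGR motif. EGR1 held 2 CArG boxes and 1 EGR motif, the EGR2 window shown held 1 CArG box, and BTG2 held 2 EGR motifs and no CArG box. RefSeq windows were matched for 33 of the 42 members, 51 windows in all. A CArG box was found in 7.84% of these windows (KLF7, EGR1, SRF and EGR2), against 1.29% of all 35116 windows and 1.17% of the windows of tested genes. The EGR motif was in 21.6% of member windows, 9.43% of all and 14.2% of the windows of tested genes. The full CRE, TGACGTCA, was in 9.8% (KLF11, ZFP36L1, MAF, JUND and MAFF), 1.85% of all and 2.62% of the windows of tested genes. The AP-1 site TGACTCA was in 1.96% of member windows (FOSL2), 4.95% of all and 3.67% of the windows of tested genes. The GC box GGGCGG, which can overlap the EGR motif, was in 64.7% of member windows, 45.0% of all and 64.2% of the windows of tested genes. The forkhead word GTAAACA was in 3.92% (BTG1 and JUNB), 3.42% of all and 2.65% of the windows of tested genes. The amino acid response word TGATGNAA was in 5.88% (ATF3, KLF7 and KLF12), 3.62% of all and 2.11% of the windows of tested genes. These matches are letters in a window and were not tested as binding sites.

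The transcripts of these genes have few exons, at a median length of 3164 bases against 3109 bases for all tested genes. In GENCODE 29, with the longest coding transcript taken for each gene, the 42 members had a median of 3 exons, against 9 for 13352 tested genes. Of the 42, 6 were in 1 exon: IER2, IER5, IER5L, JUN, JUNB and JUND. The heptamer TATTTAT, an AU-rich word that ZFP36 proteins bind to bring about mRNA decay, was present in the 3' UTR of 64.3% of members, against 31.2% of all. Median 3' UTR length was 1493 bases in members and 989 bases over all genes, and the heptamer occurred 0.519 times per kilobase of 3' UTR in members and 0.329 times over all, while its core ATTTA occurred 2.08 times per kilobase in members and 2.26 times over all. The first heptamer, in capitals, is shown with 10 bases on each side for the 3 members that changed and carry it, and for FOS and IER3.

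SRF: tggcaccactTATTTATtgttgccttt
ATF3: aaatattactTATTTATcctagtattc
BTG2: aatgaagagcTATTTATatatattatt
FOS: gtttttaattTATTTATtaagatggat
IER3: tcctaattaaTATTTATatgtatttat

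IER3 held 4 such words, FOS and SRF 2 each, and ATF3 and BTG2 1 each. PNRC1, the remaining member that changed, held neither the heptamer nor its core ATTTA.

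The libraries held 18676999 to 19838989 estimated read counts. MTHFD2 was at 38.5, 29.1 and 58.5 TPM (a level scaled to transcript length) in the shMTHFD2 libraries, against 160.4, 168.0 and 149.6 TPM in shNC, and fell by 1.95 on the log2 scale (SE 0.21, adjusted p = 0.00924). The 12 squamous epithelial markers were all detected, with KRT14 the highest, and summed to 10270 to 12590 TPM in shMTHFD2 and 11140 to 12000 TPM in shNC. Of the fibroblast markers, 4 of 7 were under 1 TPM in every library, and the sum was 12.7 to 24.2 TPM in shMTHFD2 and 6.09 to 8.73 TPM in shNC, with COL1A1 the highest at 9.6 to 22.5 TPM in shMTHFD2 and 4.23 to 6.51 TPM in shNC. All 5 endothelial markers were under 1 TPM throughout (PECAM1, the highest, at 0.21 to 0.45 TPM), as were 4 of 5 muscle markers (ACTA1, the highest, reached 1.18 TPM). The leukocyte list summed to 145.8 to 209.3 TPM in shMTHFD2 and 143.8 to 160.2 TPM in shNC, most of it CD68, while 4 of its 7 genes, among them PTPRC and CD3E, were under 1 TPM. The part of these markers in the results was not tested. The shMTHFD2 libraries differed more among themselves than the shNC libraries did, with a median SD of 0.227 against 0.0871 on the log2 scale over 13710 tested genes. shMTHFD2 replicate 2 lay farthest from the median of the 3 knockdown libraries for 51.4% of genes. Single-library values are therefore given for the members the results turn on.

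All 42 members passed the filter on low counts. Differences are given as log2 of shMTHFD2 over shNC from edgeR's quasi-likelihood fit, each with its SE. The Benjamini-Hochberg adjustment covered 13710 genes, and genes past 0.05 are the ones said to have risen or fallen. Of the 42 members, 2 rose (BTG2 and PNRC1) and 2 fell (SRF and ATF3), which is 9.52% of members against 5.43% of all genes called. Over all genes 2.97% were called higher and 2.47% lower. An unadjusted p under 0.05 was reached by 13 members (31.0%, against 28.7% of all genes). TPM values of the groups did not overlap for 14 members (33.3%, 7 higher and 7 lower in shMTHFD2), against 35.7% of all genes. The median log2 change of the members was 0.02, with 22 positive and 20 negative values, against 0.01 over all genes, and the median size was 0.26 against 0.25. Except for the adjusted calls, which are too few to read further, these shares were near those of all genes. Each of the 4 calls stood under all 8 alternative scalings, filters and tests. All 4 ended with the replicate number as a block (adjusted p 0.0652 for ATF3, 0.0865 for PNRC1, 0.0897 for SRF and 0.101 for BTG2), where 16 genes in all passed. They also ended without any 1 of the shNC libraries or without shMTHFD2 replicate 1 (highest adjusted p 0.128 for PNRC1, 0.14 for SRF, 0.142 for BTG2 and 0.17 for ATF3), fits in which at most 27 genes in all passed.

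**Figure D1:**
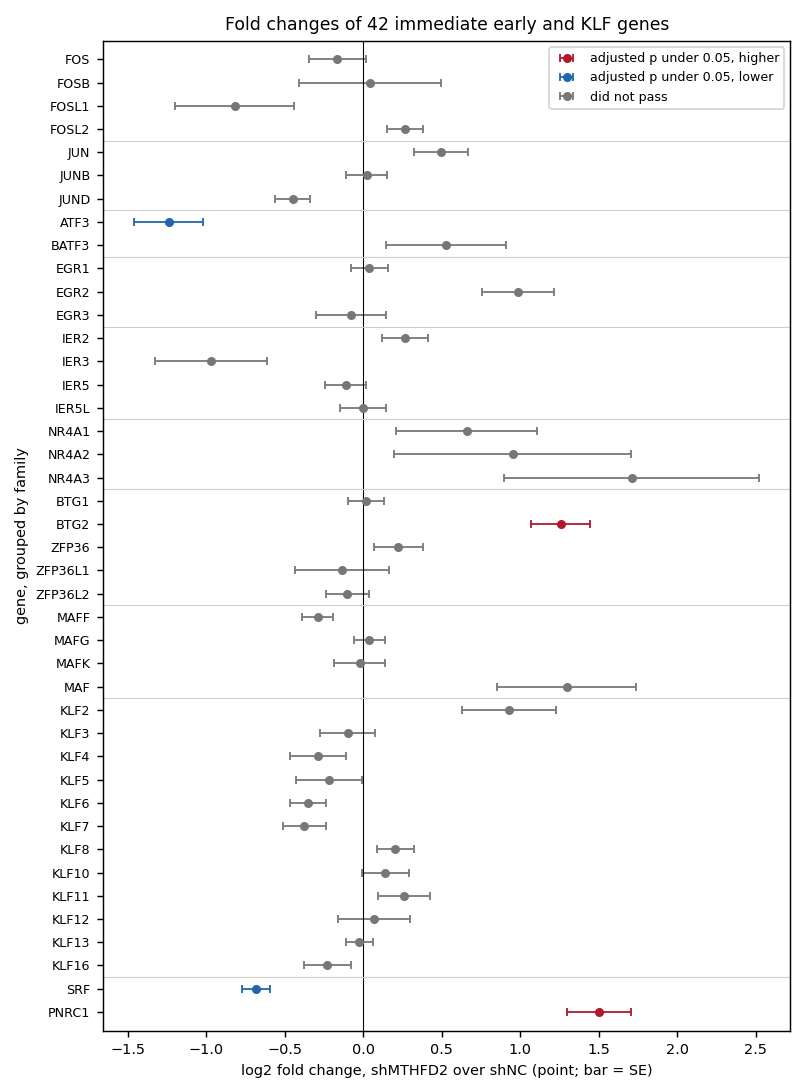
Log2 fold change of each of the 42 genes, shMTHFD2 over shNC (points), with the SE of the edgeR fit (bars), grouped by family. BTG2 and PNRC1 lie to the right and SRF and ATF3 to the left with adjusted p under 0.05, and NR4A2 and NR4A3 have the widest bars.

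SRF, the MADS-box factor that binds CArG boxes in promoters such as its own and those of EGR1 and FOS, fell in every knockdown library. In these bulk libraries fewer expressing cells and less RNA per cell cannot be told apart. SRF was at 32.5, 31.5 and 31.6 TPM in shMTHFD2, against 51.7, 50.9 and 45.3 TPM in shNC. The knockdown values lay within 1 TPM of each other and below every control value. The log2 fold change was -0.68 (SE 0.09, adjusted p = 0.0166), a level of 0.623 times control, and it ranged from -0.74 to -0.64 when each library was left out. The ratios of the single knockdown libraries to the control mean were -0.63, -0.67 and -0.73 on the log2 scale, with an SD of 0.0503, the smallest within shMTHFD2 of all 42 members.

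The other members with a CArG box in their window did not share a direction, and none passed in edgeR. EGR1, a zinc finger factor whose promoter is shown above, was at 588.9, 656.2 and 682.6 TPM in shMTHFD2, against 633.6, 524.2 and 652.2 TPM in shNC. These groups overlapped, and the log2 difference was 0.04 (SE 0.12, adjusted p = 0.851). EGR2, known for its role in myelinating Schwann cells, was at 2.71, 3.23 and 3.94 TPM in shMTHFD2, against 1.47, 1.36 and 1.85 TPM in shNC. Its groups did not overlap, and the log2 difference of 0.99 (SE 0.23) did not pass in edgeR (adjusted p = 0.0517), while DESeq2 (0.00665), upper quartile scaling and the test on TPM called it higher. EGR3 is not among the members with a CArG box match, but not every member had a matched window and it may lack one. EGR3 was at 9.01, 9.21 and 10.4 TPM in shMTHFD2. It was at 8.55, 7.22 and 13.1 TPM in shNC, a log2 difference of -0.08 (adjusted p = 0.843). KLF7, the other member with a CArG box in its window, was at 51.5, 40.1 and 61.2 TPM in shMTHFD2 and 64.0, 63.8 and 62.7 TPM in shNC (log2 -0.37, adjusted p = 0.132), with all knockdown values below all control values.

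ATF3, a stress-induced member of the ATF family that pairs with JUN proteins and can repress transcription as a homodimer, was the only AP-1 protein gene that passed. It fell to 36.3, 66.5 and 41.3 TPM in shMTHFD2, against 104.7, 124.4 and 109.9 TPM in shNC. Replicate 2 kept the highest knockdown level and still lay below every control. The log2 fold change was -1.24 (SE 0.22, adjusted p = 0.029), a level of 0.424 times control. It was -1.53 without shMTHFD2 replicate 2 (adjusted p = 0.000334) and -1.10 without replicate 3 (0.0191). ATF3 did not pass without shMTHFD2 replicate 1 or without any shNC library (adjusted p 0.108 to 0.17). BATF3, an AP-1 protein best known from dendritic cells, was low at 4.27, 2.26 and 4.09 TPM in shMTHFD2 and 2.07, 1.75 and 3.27 TPM in shNC (log2 0.53, adjusted p = 0.383).

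BTG2, an antiproliferative protein that binds the CCR4-NOT deadenylase and is a known p53 target, rose in all knockdown libraries. It was at 9.28, 11.2 and 8.45 TPM in shMTHFD2, against 4.04, 3.28 and 4.36 TPM in shNC. The lowest knockdown value was above the highest control value. The log2 fold change was 1.26 (SE 0.19, adjusted p = 0.0211), or 2.39-fold. Its paralog BTG1 was at 28.9, 36.8 and 34.2 TPM in shMTHFD2 and 30.2, 33.1 and 32.1 TPM in shNC, groups that overlapped (log2 0.02, SE 0.12, adjusted p = 0.935).

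PNRC1, a proline-rich nuclear receptor coactivator, had the largest rise among the members that passed. It was at 93.0, 125.5 and 80.5 TPM in shMTHFD2, against 35.1, 28.7 and 38.4 TPM in shNC. Every knockdown value was above 80 TPM and every control value under 40 TPM. The log2 fold change was 1.502 (SE 0.20, adjusted p = 0.0172), or 2.83-fold.

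**Figure D2:**
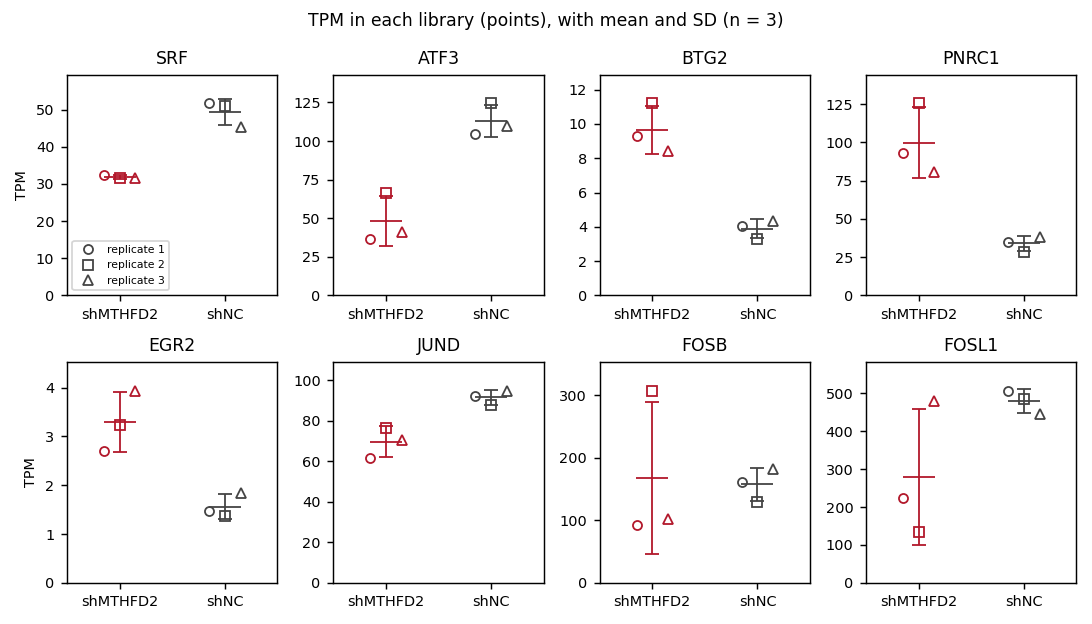
TPM of 8 members in each library (points, a marker per replicate number), with the mean and SD of the 3 libraries of each group. SRF and ATF3 are lower and BTG2 and PNRC1 higher in all 3 shMTHFD2 libraries, EGR2 and JUND are apart without passing, and FOSB and FOSL1 are spread over the knockdown libraries.

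In the FOS family the knockdown libraries disagreed with one another. FOS itself was at 367.7, 492.8 and 318.7 TPM in shMTHFD2, against 433.5, 388.5 and 459.1 TPM in shNC (log2 -0.17, SE 0.18, adjusted p = 0.559). FOSB was at 91.7, 307.1 and 102.5 TPM in shMTHFD2, against 161.3, 129.3 and 181.9 TPM in shNC. Replicate 2 was above every control and replicates 1 and 3 were below every control, so the log2 difference of 0.04 (SE 0.45, adjusted p = 0.959) averages opposite values. Without shMTHFD2 replicate 2 FOSB was lower by that test, at -0.76 (adjusted p = 0.0125).

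FOSL1, the FRA-1 protein gene that is prominent in squamous carcinomas and invasive cells, showed a different order. It was at 224.7, 133.8 and 481.3 TPM in shMTHFD2, against 507.4, 486.1 and 446.8 TPM in shNC. Replicates 1 and 2 were below every control, while replicate 3 lay among them. The log2 difference of -0.82 (SE 0.38) did not pass (adjusted p = 0.201), and it was -1.39 without replicate 3 (adjusted p = 0.011). FOSL2, the FRA-2 protein gene, was at 63.6, 55.6 and 76.8 TPM in shMTHFD2, against 54.6, 50.8 and 52.8 TPM in shNC, higher without overlap but not past the threshold (log2 0.26, SE 0.12, adjusted p = 0.179).

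Summed over its 4 genes, the FOS family was at 747.7, 989.2 and 979.4 TPM in shMTHFD2, against 1157, 1055 and 1141 TPM in shNC, lower in all 3 knockdown libraries (exact permutation test, two-sided, p = 0.1, the smallest that 3 against 3 allows; adjusted 0.333 over 30 sums and shares). The share of FOSL1 in that sum was 30.1, 13.5 and 49.2% in shMTHFD2 and 43.9, 46.1 and 39.2% in shNC. The share of FOSB was 12.3, 31.0 and 10.5% in shMTHFD2 and 14.0, 12.3 and 16.0% in shNC. In shMTHFD2 replicate 2, FOSB thus made up more of the family than FOSL1, the reverse of the other 5 libraries.

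Among the JUN genes, which supply the obligate partner of FOS proteins, JUN was at 224.5, 285.1 and 192.6 TPM in shMTHFD2, against 154.0, 149.9 and 178.6 TPM in shNC. All knockdown values were above all control values, and the log2 difference of 0.49 (SE 0.17) did not pass (adjusted p = 0.121). JUND, which is expressed in resting cells and is known to slow growth, lay lower without overlap at 61.4, 76.6 and 70.7 TPM in shMTHFD2, against 92.2, 87.9 and 94.95 TPM in shNC. Its log2 difference of -0.45 (SE 0.11) missed the threshold in edgeR (adjusted p = 0.0588) and passed in DESeq2 (0.0104). JUNB was at 451.9, 448.5 and 410.0 TPM in shMTHFD2 and 413.1, 358.6 and 473.4 TPM in shNC, groups that overlapped (log2 0.02, adjusted p = 0.924). The share of JUN in the summed JUN family was 30.4, 35.2 and 28.6% in shMTHFD2 and 23.4, 25.1 and 23.9% in shNC, and that of JUND 8.33, 9.46 and 10.5% against 14.0, 14.7 and 12.7% (exact permutation test, two-sided, p = 0.1 each, adjusted 0.333).

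**Figure D3:**
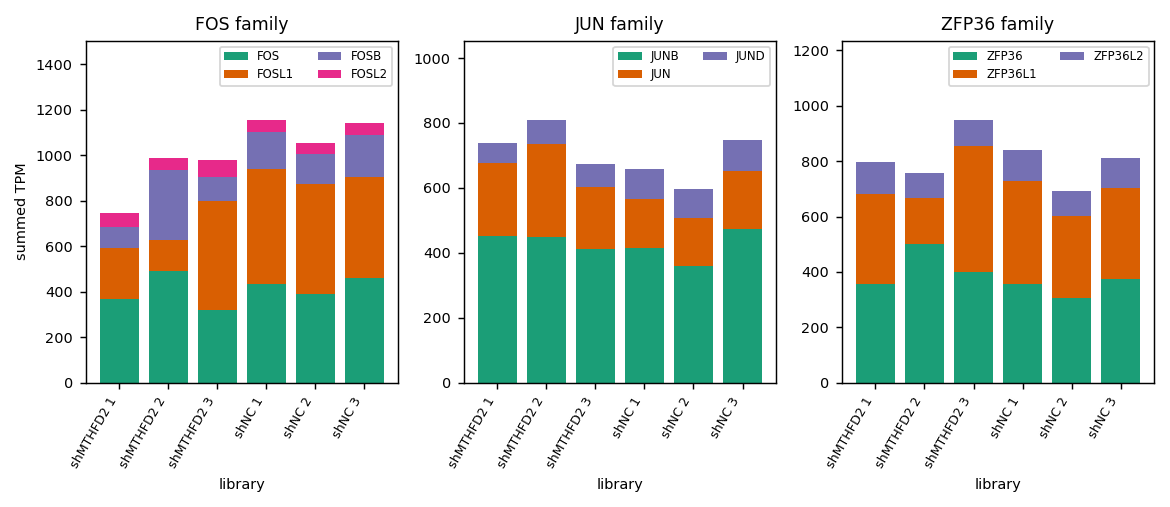
Summed TPM of the FOS, JUN and ZFP36 families in each library, stacked by gene. FOSL1 and ZFP36L1 are smallest and FOSB largest in shMTHFD2 replicate 2, and the JUN share is higher and the JUND share lower in all 3 shMTHFD2 libraries.

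The NR4A genes, orphan nuclear receptors induced through CREB and calcium signals, were highest in shMTHFD2 replicate 2. NR4A1 was at 12.2, 29.4 and 7.56 TPM in shMTHFD2, against 9.51, 9.34 and 11.1 TPM in shNC (log2 0.66, SE 0.45, adjusted p = 0.355). NR4A2 was at 1.55, 10.6 and 1.36 TPM in shMTHFD2, against 2.15, 1.95 and 2.50 TPM in shNC (log2 0.95, SE 0.75, adjusted p = 0.419). NR4A3 had 21, 96 and 11 read counts in shMTHFD2, against 9, 18 and 12 in shNC (log2 1.71, SE 0.81, adjusted p = 0.209). Replicate 2 exceeded the control mean by 1.47, 2.04 and 2.25 on the log2 scale for NR4A1, NR4A2 and NR4A3, whereas replicate 3 was at -0.47, -0.68 and -0.16. Without replicate 2 the log2 differences were -0.06, -0.64 and 0.28 (adjusted p = 0.884, 0.106 and 0.72), so the positive values of NR4A1 and NR4A2 rest on that library.

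IER3, a survival protein linked to ERK and NF-kB signals, had the highest control level of all members and was below control in each knockdown library. It was at 537.8, 230.0 and 780.4 TPM in shMTHFD2, against 947.7, 965.0 and 979.1 TPM in shNC. The groups did not overlap, but the knockdown values spanned a wide range, and the log2 difference of -0.97 (SE 0.36) did not pass in edgeR (adjusted p = 0.132) while DESeq2 called it lower (0.0357). It passed without shMTHFD2 replicate 2 (log2 -0.61, adjusted p = 0.0205) and without replicate 3 (-1.34, 0.0282), fits that called 14.2% and 26.3% of all genes. It did not pass without shMTHFD2 replicate 1 or without any shNC library (adjusted p 0.243 to 0.344). IER2, a nuclear protein of the same naming series but unrelated in structure, was at 170.0, 193.8 and 144.3 TPM in shMTHFD2 and 125.8, 132.4 and 150.1 TPM in shNC (log2 0.27, adjusted p = 0.266). IER5 and IER5L, related to IER2, had log2 differences of -0.11 (adjusted p = 0.59) and -0.003 (0.99), with overlapping groups.

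The ZFP36 proteins, which bind the AU-rich words shown above, did not pass. ZFP36 was at 354.7, 499.6 and 400.9 TPM in shMTHFD2 and 355.4, 307.0 and 375.7 TPM in shNC (log2 0.22, adjusted p = 0.363). ZFP36L1 was at 326.4, 168.1 and 453.3 TPM in shMTHFD2 and 374.3, 293.4 and 326.1 TPM in shNC (log2 -0.13, adjusted p = 0.787), with replicate 2 below and replicate 3 above every control. ZFP36L2 had a log2 difference of -0.10 (adjusted p = 0.641). The summed family averaged 835.4 ± 101.6 TPM in shMTHFD2 and 781.8 ± 79.1 TPM in shNC (SD, n = 3 each; exact permutation test, p = 0.6), while ZFP36L1 made up 22.2% of it in shMTHFD2 replicate 2 and 40.1 to 47.7% in the other 5 libraries.

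Of the small MAF proteins, which pair with FOS and NRF-type factors and lack an activation domain, MAFF lay lower without overlap at 29.6, 27.4 and 31.5 TPM in shMTHFD2, against 35.3, 32.5 and 36.0 TPM in shNC (log2 -0.29, SE 0.10, adjusted p = 0.109). MAFG and MAFK had log2 differences of 0.04 and -0.02 (adjusted p = 0.814 and 0.939) with overlapping groups. MAF, the long member of the family, had 13, 14 and 21 read counts in shMTHFD2 and 10, 4 and 5 in shNC (log2 1.296, SE 0.44, adjusted p = 0.116), and its value is uncertain at this depth.

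Of the 12 KLF genes none passed in edgeR, where 1 higher and 2 lower reached an unadjusted p under 0.05, and DESeq2 called KLF2 alone. KLF2, known as a factor of quiescence and blood flow in endothelium and T cells, was at 6.04, 9.37 and 4.77 TPM in shMTHFD2, against 3.87, 2.61 and 3.78 TPM in shNC. Its groups did not overlap, and the log2 difference of 0.93 (SE 0.30) had an adjusted p of 0.103 in edgeR and 0.0291 in DESeq2. KLF6, the most abundant KLF gene and a reported tumour suppressor, was at 177.3, 138.1 and 184.8 TPM in shMTHFD2, against 209.9, 209.3 and 196.3 TPM in shNC (log2 -0.35, SE 0.11, adjusted p = 0.105). Like KLF7 above, it was below control in every knockdown library.

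KLF5, which promotes growth of basal epithelial cells, was at 70.4, 48.1 and 97.1 TPM in shMTHFD2 and 81.8, 83.6 and 72.9 TPM in shNC (log2 -0.22, adjusted p = 0.505), lowest in replicate 2 and above every control in replicate 3. KLF4, a factor of terminal squamous differentiation, ran the other way among the knockdown libraries, at 16.0, 21.0 and 14.1 TPM in shMTHFD2 against 22.1, 19.1 and 19.3 TPM in shNC (log2 -0.29, adjusted p = 0.308). KLF4 was lower than control by test without shMTHFD2 replicate 2 (log2 -0.47, adjusted p = 0.0315). KLF10, a TGF-beta-induced repressor, was at 165.5, 118.0 and 183.1 TPM in shMTHFD2 and 138.9, 124.9 and 142.6 TPM in shNC (log2 0.14, adjusted p = 0.553). It too reversed sides in replicate 2, and passed as higher without it (log2 0.31, adjusted p = 0.0458).

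The remaining KLF genes had overlapping groups. KLF13 was nearly level at 47.3, 46.4 and 44.8 TPM in shMTHFD2 and 47.1, 44.7 and 44.3 TPM in shNC (log2 -0.02, SE 0.08, adjusted p = 0.872). KLF3 (log2 -0.10), KLF8 (0.21), KLF11 (0.26), KLF12 (0.07) and KLF16 (-0.23) had adjusted p-values of 0.719, 0.283, 0.327, 0.865 and 0.337. All 12 KLF genes had a larger SD of log2 values in shMTHFD2 than in shNC, as did 85.7% of the members and 83.4% of all genes.

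**Figure D4:**
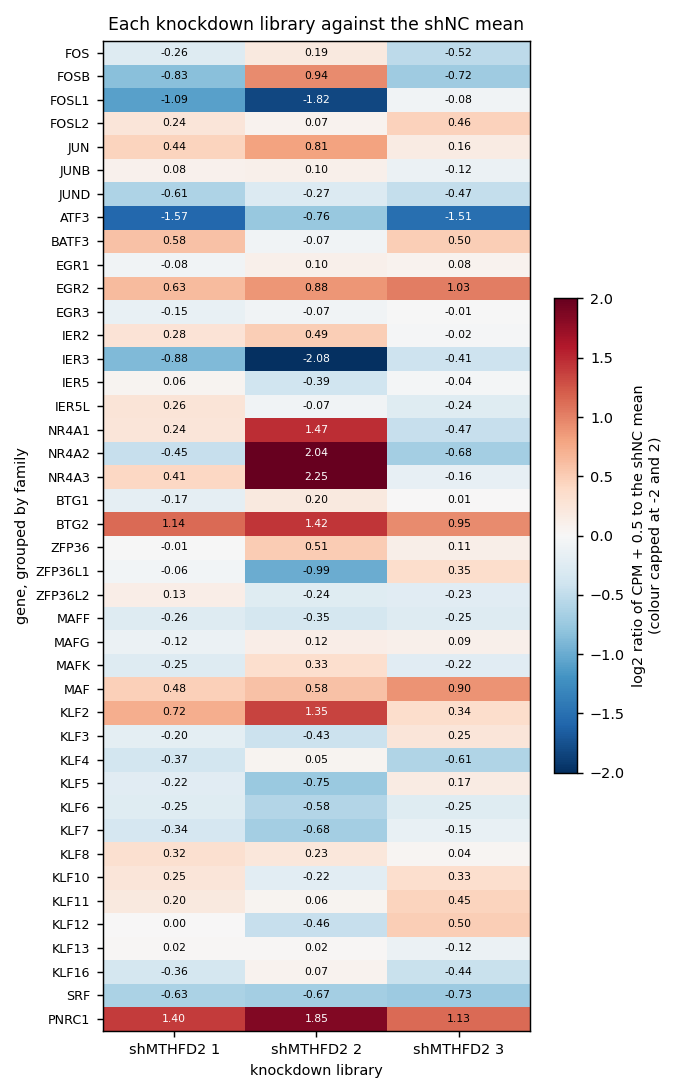
Log2 ratio of each shMTHFD2 library to the mean of the 3 shNC libraries, from CPM with 0.5 added, for the 42 members (rows) in the 3 knockdown libraries (columns). SRF, ATF3, BTG2 and PNRC1 have the same sign in every column, as do members that did not pass, among them JUN, JUND, EGR2, KLF2 and KLF6. FOSB and NR4A2 are positive in replicate 2 alone, and FOSL1 and IER3, negative in every column, vary widely in size.

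shMTHFD2 replicate 2 was farthest from the median of the knockdown libraries for 25 of the 42 members (59.5%, against 51.4% of all genes), replicate 3 for 11 (26.2%, against 33.9%) and replicate 1 for 6 (14.3%, against 14.6%). With replicate 2 left out, edgeR called 12 members (28.6%, against 14.2% of all genes): FOSL2, EGR2, BTG2, KLF10 and PNRC1 higher, and FOSB, JUND, ATF3, IER3, KLF4, KLF16 and SRF lower. With replicate 3 left out, it called 13 (31.0%, against 26.3% of all genes): JUN, EGR2, IER2, NR4A3, BTG2, KLF2 and PNRC1 higher, and FOSL1, JUND, ATF3, IER3, KLF7 and SRF lower. The 7 members called in both fits were EGR2, BTG2, PNRC1, JUND, ATF3, IER3 and SRF. DESeq2 with all 6 libraries called 8 members (19.0%, against 14.8% of all genes): those 7 and KLF2. The 14 members with a mean of at least 100 TPM in shNC included ATF3 as the only one called by edgeR with all libraries.

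Of 39 other immediate early genes tested, not among the 42, 26 had a negative and 13 a positive log2 difference, with a median of -0.43, against 0.02 for the members and 0.01 over all genes. The list, like those in the paragraphs below, was chosen with earlier results of these data known. Its shares are therefore description and do not test immediate early genes as a set. In this list 4 genes fell (CCN1, PHLDA2, PLK2 and SGK1) and 1 rose (SOCS3), 12.8% against 5.43% of all genes. At an unadjusted p under 0.05, 17 were lower and 4 higher, 53.8% against 28.7% of all genes, which split into 1934 lower and 1998 higher. The matricellular gene CCN1, an SRF and YAP target, was at 192.0, 155.3 and 190.0 TPM in shMTHFD2, against 273.8, 253.0 and 243.3 TPM in shNC (log2 -0.57, SE 0.10, adjusted p = 0.0301). The polo-like kinase gene PLK2 was at 93.8, 60.8 and 90.3 TPM in shMTHFD2, against 145.6, 144.8 and 128.7 TPM in shNC, and fell by 0.83 (SE 0.16, adjusted p = 0.0341). PHLDA2, an imprinted growth regulator, was at 72.5, 92.3 and 95.3 TPM in shMTHFD2, against 126.0, 122.0 and 125.5 TPM in shNC, and fell by 0.58 (SE 0.12, adjusted p = 0.0425). In each of these genes every knockdown value was below every control value. The kinase gene SGK1 was at 39.1, 22.2 and 50.6 TPM in shMTHFD2, against 85.0, 80.3 and 77.4 TPM in shNC, and fell by 1.18 (SE 0.25, adjusted p = 0.0425). SOCS3, a feedback inhibitor of cytokine signals, was at 92.6, 106.8 and 80.9 TPM in shMTHFD2, against 58.4, 49.3 and 60.9 TPM in shNC, and rose by 0.69 (SE 0.145, adjusted p = 0.0427). Calls in this list depended on single libraries as those of the members did, with 15 without shMTHFD2 replicate 2 (38.5%, against 14.2% of all genes), 22 without replicate 3 (56.4%, against 26.3%) and 0 without any 1 of the other 4. DESeq2 called 18 of the 39 (46.2%, against 14.8% of all genes). limma-voom called 6 of the 39, against 694 of all 13710 genes.

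The kinases and partners that signal to SRF and CREB did not pass. Of 26 tested, edgeR, DESeq2 and limma-voom each called 0. Over all genes edgeR called 5.43%, DESeq2 14.8% and limma-voom 694 of 13710. At an unadjusted p under 0.05, 2 were higher and 3 lower (19.2%, against 28.7%). Without shMTHFD2 replicate 2, 1 was called (3.85%, against 14.2%), and without replicate 3, 2 (7.69%, against 26.3%). The median log2 change of the 26 was -0.02. Of 13 further bZIP genes, EGR4 and EGR cofactors, edgeR, DESeq2 and limma-voom called 0, and the median log2 change was -0.01. Of these 13, 2 were higher and 1 lower at an unadjusted p under 0.05 (23.1%, against 28.7% of all genes). Of 7 tested KLF9 and SP genes, edgeR and limma-voom called 0, and the median log2 change was 0.21. DESeq2 called 2, KLF9 and SP6, as higher (28.6%, against 14.8% of all genes). In edgeR 2 were higher and 2 lower at an unadjusted p under 0.05 (57.1%, against 28.7%). Without shMTHFD2 replicate 3, KLF9 and SP6 were called higher and SP2, SP3 and SP4 lower (71.4%, against 26.3% of all genes). Without replicate 2, SP6 alone was called (14.3%, against 14.2%). These shares rest on 7 genes.

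Of 18 tested genes reported as AP-1 targets in epithelium, 2 fell, AXL and SPRR2A, and 0 rose, 11.1% against 5.43% of all genes, and the median log2 difference was -0.07. This list too was chosen with earlier results of these data known, so its shares only describe these genes. The receptor kinase gene AXL was at 64.3, 35.1 and 76.3 TPM in shMTHFD2, against 165.2, 148.0 and 138.4 TPM in shNC (log2 -1.42, SE 0.25, adjusted p = 0.0275). The cornified envelope gene SPRR2A had 0.29 to 1.46 TPM in shMTHFD2 and 5.01 to 6.76 TPM in shNC (log2 -2.68, SE 0.46, adjusted p = 0.0271), and it belongs to a family of near-identical copies, so its count is uncertain. Before adjustment 4 higher and 5 lower had p under 0.05 (9 of 18, against 28.7% of all genes), and DESeq2 called 1 higher and 4 lower (27.8%, against 14.8%). Calls numbered 6 without shMTHFD2 replicate 2 (33.3%, against 14.2% of all genes) and 11 without replicate 3 (61.1%, against 26.3%). Without any 1 of the other 4 libraries they numbered 0.

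Of 16 tested genes tied to KLF4 and KLF5, the tight junction gene CLDN4 rose and 0 fell, 6.25% against 5.43% of all genes, and the median log2 difference was -0.06. CLDN4 was at 127.7, 170.9 and 108.2 TPM in shMTHFD2, against 70.0, 72.2 and 72.1 TPM in shNC (log2 0.88, SE 0.18, adjusted p = 0.0405). Before adjustment 4 higher and 0 lower had p under 0.05 (25.0%, against 28.7% of all genes). DESeq2 called 2, both higher (12.5%, against 14.8%). Without shMTHFD2 replicate 2, 2 were called, both higher (12.5%, against 14.2% of all genes). Without replicate 3, 3 higher and 2 lower were called (31.2%, against 26.3%), and 0 without any 1 of the other 4 libraries.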

How the data were processed

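RNA sequencing covered 3 shMTHFD2 and 3 shNC libraries of SCC-9 cells, grouped by sample title. Per the file headers, the table deposited by the authors gives estimated counts of reads per gene (53.0 to 56.0% are whole within 0.001). The same table, as deposited by the authors, gives TPM scaled to gene length, FPKM and normalized read counts, a signal divided by 1 factor per library. The FPKM and normalized columns deposited by the authors were not used here. A mouse build, mm10, stands in the submitters' processing notes although the cells are human. The aligner, the annotation and the handling of strand were not given in the sources used here, so genes that overlap or share sequence may be miscounted.

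Counts were rounded, filtered with filterByExpr, scaled by TMM and compared over all genes by edgeR's robust quasi-likelihood test (edgeR 4.0.16, R 4.3.3) without a covariate, with Benjamini-Hochberg adjustment and a threshold of 0.05. Each SE was derived from the log2 change and its F statistic. The biological coefficient of variation was 16.7%. A count of 0 allows 3 counts, 0.151 to 0.161 CPM, for counting error only. Replicates were not duplicates (chi-square per degree of freedom 3.64 to 81.7). Ratios of single libraries used TMM-scaled CPM with 0.5 added. Alternatives were each library left out, the replicate number as a block, other scalings, no filter, DESeq2 1.42.0, limma-voom and limma-trend (limma 3.58.1) on log2(TPM + 1) or log2(TPM + 0.1) for genes with at least 1 TPM in 3 libraries. The test was also run on simulated counts in which both groups had the same spread. That run does not cover the larger spread within shMTHFD2. Tables, exact tests and figures used Python 3.11.15, pandas 2.3.3, SciPy 1.17.1 and matplotlib 3.10.9.

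The members and gene lists were chosen with earlier results of these data known. All 42 members are named, with up to 6 called genes per further list and, of each marker list, its gene with the highest TPM. Words were counted in RefSeq promoter windows (GRCh38.p14) and GENCODE 29 transcripts, which were matched by symbol and not used for counting.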

Additional observations from a re-analysis of the deposited data

How the results depend on the processing

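Of the 745 genes and 4 members called with all 6 libraries, the counts were 2023 and 8 with DESeq2 and 16 and 0 with the replicate block. Leaving out 1 library at a time gave 1 to 3651 genes and 0 to 13 members; calls were many without shMTHFD2 replicate 2 or 3 and few without any other library. Same-numbered libraries did not deviate together (correlations -0.02, -0.28 and -0.26) and none correlated best with its own number. No pairing of the numbers is stated, so the block was kept as an alternative and not as the main fit. The other scalings, no filter, limma-voom and limma-trend on TPM kept the count of members within 1.5 times. The split of calls over all genes was 407 higher and 338 lower with TMM, 455 and 210 with upper quartile scaling and 449 and 230 with total counts. FOSB ranged from -0.76 to 0.33 over the 6 fits that leave out 1 library, and changed sign and passed, at -0.76, without shMTHFD2 replicate 2; the cause was not tested. Of the members' other fold changes under all alternatives, 537 kept their direction and side of the threshold, 23 passed newly, 20 no longer passed and 45 that had not passed changed sign without passing. With 3 libraries per group, differences of the size of EGR2 and JUND fell on either side of the threshold depending on the test.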
